A study of Mus musculus with 12 samples.

Results

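The 87 genes described here encode the proteins of the cytosolic ribosome and their retrogenes and paralogs, out of 20788 genes in the table. They were chosen by symbol alone: Rpl or Rps followed by a digit, Rplp0, Rplp1, Rplp2 and Rpsa, without the Rps6k kinases and without symbols that carry "-ps". By their names, 43 belong to the large subunit, 31 to the small subunit and 3 to the stalk of the large subunit, and 9 are paralogs or retrogenes of another member. The symbol rule also takes in Rps19bp1, which encodes a protein that binds Rps19 and is not a ribosomal protein. RNA of F1 mouse testes (strain given as IRC mouse) was sequenced from total RNA in 12 libraries, 3 in each of 4 groups. Testes of the 8276OV group had been given virus that overexpresses the long non-coding RNA lncRNA8276, and those of the 8276KD group virus that inhibits it. The groups 5NC and 3NC are taken as controls; 8276OV is set against 5NC and 8276KD against 3NC because the design text gives them in that order. The labels name no age, dose or time and do not say which testis cells took up the virus. Nor do they state that each library is from its own animal, and p-values therefore measure the spread between samples only, which may be technical. No value is given here for lncRNA8276 itself.

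Every cytosolic ribosome joins a small subunit, which reads the mRNA, to a large subunit, which links the amino acids, and most ribosomal proteins are needed in a single copy per ribosome. Their mRNAs are short, abundant and, as a class, begin with a run of pyrimidines that lets the mTOR pathway set how strongly they are translated. In male germ cells the X chromosome is silenced during meiosis, and X-linked ribosomal protein genes such as Rpl10 have autosomal copies that are read in the testis. Rpl10l, a retrogene of Rpl10, is required for mouse male meiosis, and Rpl39l is a testis-enriched copy of Rpl39.

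The coding sequences of both retrocopies differ from those of their X-linked parents at many single bases. Rpl10l lies at chr12:66283379-66284401 and Rpl10 at chrX:74270816-74273135, Rpl39l at chr16:10170197-10174911 and Rpl39 at chrX:37082518-37085222, with positions from RefSeq on GRCm38, the assembly behind mm10. Over the 642 aligned coding bases of Rpl10l and Rpl10, 98 differ, an identity of 84.7%, and over the 153 of Rpl39l and Rpl39, 23 differ, an identity of 85%. The first 150 coding bases of the Rpl10 pair and all 153 of the Rpl39 pair follow, from GENCODE M21 and without the stop codon, with the bases that differ within a pair in capitals.
Rpl10l coding: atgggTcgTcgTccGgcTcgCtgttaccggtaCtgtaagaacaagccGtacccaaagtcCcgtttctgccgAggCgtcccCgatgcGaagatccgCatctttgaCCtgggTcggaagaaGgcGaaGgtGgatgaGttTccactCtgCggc
Rpl10 coding: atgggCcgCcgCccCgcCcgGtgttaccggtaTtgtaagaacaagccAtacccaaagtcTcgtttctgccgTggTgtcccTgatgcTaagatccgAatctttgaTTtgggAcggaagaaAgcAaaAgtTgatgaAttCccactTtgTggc
Rpl39l coding: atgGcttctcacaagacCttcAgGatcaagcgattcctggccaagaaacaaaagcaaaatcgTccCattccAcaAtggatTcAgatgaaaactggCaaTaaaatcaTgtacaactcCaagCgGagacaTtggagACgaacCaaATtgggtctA
Rpl39 coding: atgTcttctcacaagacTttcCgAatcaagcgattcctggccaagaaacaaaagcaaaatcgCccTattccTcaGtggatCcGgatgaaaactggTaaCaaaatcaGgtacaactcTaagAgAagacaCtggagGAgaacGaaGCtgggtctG

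The next 3 sequences surround annotated transcription starts of abundant members, which were not observed in these data. They were read from RefSeq's GRCm38.p6 promoter table as the 80 bases before and the 20 from the start. Capitals mark the letters CTTCCGG or their reverse complement, a motif that ETS-family factors bind; these are the 3 members with the highest level whose printed stretch holds it.
Rpl41, chr10:128549149-128549248, minus strand: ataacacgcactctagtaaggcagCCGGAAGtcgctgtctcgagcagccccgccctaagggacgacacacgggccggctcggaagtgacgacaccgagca
Rpl26, chr11:68901486-68901585, plus strand: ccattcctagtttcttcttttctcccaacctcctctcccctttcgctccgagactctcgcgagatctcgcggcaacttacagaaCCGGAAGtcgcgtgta
Rpl38, chr11:114668500-114668599, plus strand: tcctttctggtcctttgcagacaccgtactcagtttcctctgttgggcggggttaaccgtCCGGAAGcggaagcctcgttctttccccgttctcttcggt
Of the 87 members, 67 had a promoter in that table, with 250 bases before the start and 50 after it. CTTCCGG, searched on both strands, was in 37.3% of these 67 windows and in 12.7% of the 16284 windows of all genes of the table. A run of 5 pyrimidines opening with C within 5 bases of the start was in 43.3% of the members' windows and 19.1% of all windows. TATAAA was in 10.4% against 11.4%, and ATGGCGGC, letters that YY1 binds, in 5.97% against 3.4%. These are counts of letters in windows, not adjusted for base composition, and no test was made of them.

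Ribosomal protein mRNA was abundant in these testes. The libraries held 13485472 to 15771652 counts, and the 87 members took 1.26% to 1.57% of them. The median member had a mean of 266 FPKM, fragments per kilobase of transcript scaled to library size, against 3.31 FPKM for all genes of the table. A mean of at least 100 FPKM was reached by 71 members, and 51 were among the 500 genes with the highest level. The median was 266 FPKM for the large subunit and 296 FPKM for the small subunit, and the 3 stalk genes lay between 335 and 596 FPKM. All 7 markers of spermatocytes and all 7 of elongating spermatids listed for the tissue check were detected in every library, with summed levels of 3673 to 4549 and 14290 to 20750 normalised CPM (counts scaled to library size). The 6 epididymis markers summed to 2.33 CPM in 8276KD 3 and up to 246.5 CPM in 8276KD 1. In whole testis, fewer cells of a type and less RNA per cell cannot be told apart.

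The highest level was that of Rpl41, a very small basic protein of the large subunit, at 1400 FPKM. Its libraries ran, in FPKM, 1538, 1307 and 1477 in 8276OV, 1523, 1433 and 1344 in 5NC, 1429, 1355 and 1415 in 8276KD, and 1440, 1274 and 1266 in 3NC, so all 4 groups overlapped. Rps27, a zinc-binding protein of the small subunit, followed at 970.2 FPKM, and then Rps28 at 712 FPKM, Rps23 of the decoding centre at 667 FPKM, Rpl32 at 630.1 FPKM and Rpl26 at 619 FPKM. Rpl38 had 604 FPKM, the stalk base Rplp0 596 FPKM, Rps29 584 FPKM and Rps24 562 FPKM. The genes of the ribosome itself thus ran from 1400 FPKM down to the 5.11 FPKM of Rps6.

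**Figure D1:**
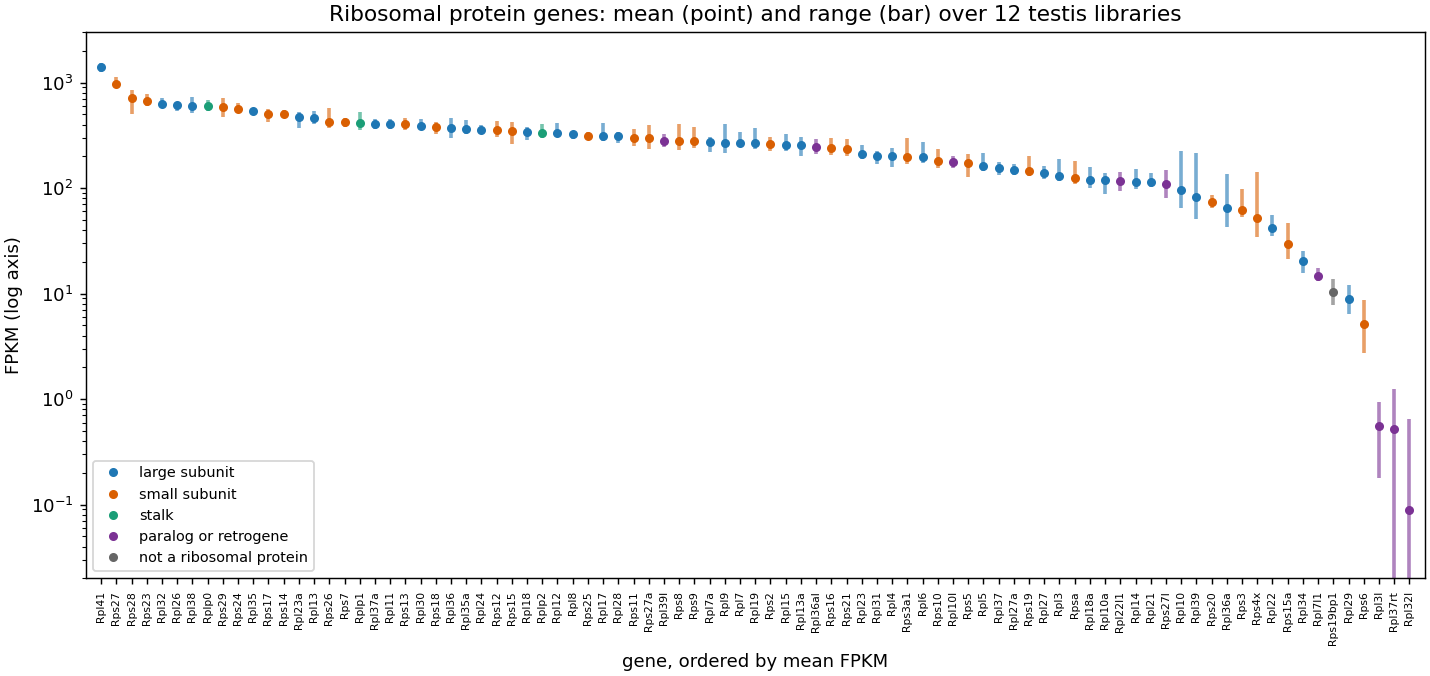
Each point is the mean FPKM of a gene over the 12 libraries (log axis), each bar runs from its lowest to its highest library, and colours give the class; bars that reach 0 run to the bottom of the axis. Rpl41 leads at 1400 FPKM, most genes lie above 100 FPKM, and 3 of the paralogs lie below 1 FPKM.

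The lowest genes of the ribosome itself were Rps6, the small-subunit protein phosphorylated downstream of mTOR, at 5.11 FPKM, Rpl29 at 8.85 FPKM and Rpl34 at 20.1 FPKM. All 3 have fractional counts in every library, and how the authors' counting gave fractions is not stated, so their levels are uncertain. Ribosomal protein genes have many processed pseudogenes, and 33 of the 85 members with a GENCODE coding transcript shared over 50% of their 50-base stretches with transcripts of other genes. That share was 84.6% for Rps6 and 66.2% for Rpl29 but 37.9% for Rpl34, and it was 98.6% for Rps27, which had whole counts and a level among the highest. The median share was 42.8% in members with fractional counts and 41.8% in those with whole counts. Fractional counts were present in 21 of 87 members (24.1%), against 17.2% of all genes, and in all 12 libraries for 9 members. Across the 85 members the shared fraction and the FPKM had a Spearman rho of 0.21, given as a description because genes are not independent.

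FPKM also depends on the transcript length that was used. The length implied by the deposited counts and FPKM had a median of 595 bases over the members, but it was 5000 bases for Rps15a and 3310 bases for Rps20, whose coding sequences have 390 and 357 bases. Their 29.7 and 74.5 FPKM stand beside a mean of 148 and 247 CPM. Over the 87 members the FPKM and the implied length had a rho of -0.55, again as a description.

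Among the paralogs, 5 of 9 reached over 100 FPKM. Rpl39l had 282 FPKM and Rpl39, an exit-tunnel protein, 82.7 FPKM; Rpl36al had 246 FPKM and Rpl36a 65.3 FPKM. Rpl10l had 176 FPKM and Rpl10, a protein near the peptidyl transferase centre, 96.5 FPKM. Rpl22l1 had 117 FPKM and its parent Rpl22 42 FPKM, whereas Rps27l, at 109 FPKM, stayed well below Rps27. By counts the order of Rpl22l1 and Rpl22 was reversed, at 41.1 and 86.6 CPM, with implied lengths of 350 and 2070 bases. Rpl7l1 had 14.7 FPKM against 269 FPKM for Rpl7, and Rpl3l, the striated-muscle form of Rpl3, had 0.558 FPKM against 129 FPKM. Rpl32l was listed with counts of 1, 4 and 1 in 8276OV and 1 in 8276KD 3, and at 0 elsewhere. Rpl37rt had at most 9.05 counts in any library and was at 0 in 5NC 3 and 3NC 2. These last 2 were left out of the tests by the filter on low counts, which left 85 members among 16395 genes.

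One control library stood apart before any comparison. In 3NC 2 the 4 X-linked members were the 4 members farthest above the other 11 libraries, out of 85. Rps4x, a small-subunit protein, was at 107 CPM in 3NC 2 and at 28.8 to 46.5 CPM elsewhere, a ratio of 3.13 to their median. Rpl39 was at 58.8 CPM against 15.3 to 32.5 CPM, a ratio of 3.06. Rpl10 was at 139 CPM against 44.4 to 71.3 CPM, a ratio of 2.56, and Rpl36a at 43.9 CPM against 15.7 to 27.5 CPM, a ratio of 2.12. The next members were autosomal, Rps15a at a ratio of 1.68, Rps3 at 1.58 and Rps3a1 at 1.52.

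The shift was not shared by X-linked genes at large. In 3NC 2 the median log2 ratio to the other libraries was 1.48 over the 4 X-linked members, 0.15 over the autosomal members, 0.10 over all 768 X-linked genes tested and -0.07 over the mitochondrial ribosomal proteins. The autosomal paralogs Rpl10l and Rpl39l lay on the other side: Rpl10l was at 132 CPM in 3NC 2 against 137 to 189 CPM elsewhere, and Rpl39l at 155 CPM against 157 to 215 CPM. Rpl36al, the paralog of Rpl36a, did not, at 95.7 CPM against 82 to 107.6 CPM, a ratio of 1.02 to their median. In the same library all 7 leukocyte markers were detected and summed to 251 CPM, against 23.5 to 31.6 CPM in the others, where only Cd3e in 5NC 3 was at 0. The 7 interferon-response genes measured summed to 264 CPM in 3NC 2 against 4.92 to 19 CPM, and the spermatocyte markers to 3673 CPM against 4281 to 4549 CPM. Sertoli cell markers summed to 204.4 CPM against 143.5 to 168.2 CPM, and endothelial markers to 49.96 CPM against 25.27 to 41.67 CPM. Elongating spermatid markers summed to 14290 CPM against 14950 to 20750 CPM. The sums of spermatogonia, round spermatid, Leydig, peritubular, epididymis and blood markers lay within the range of the other libraries. The part of these cell contents and of the interferon response in the X-linked levels was not tested.

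**Figure D2:**
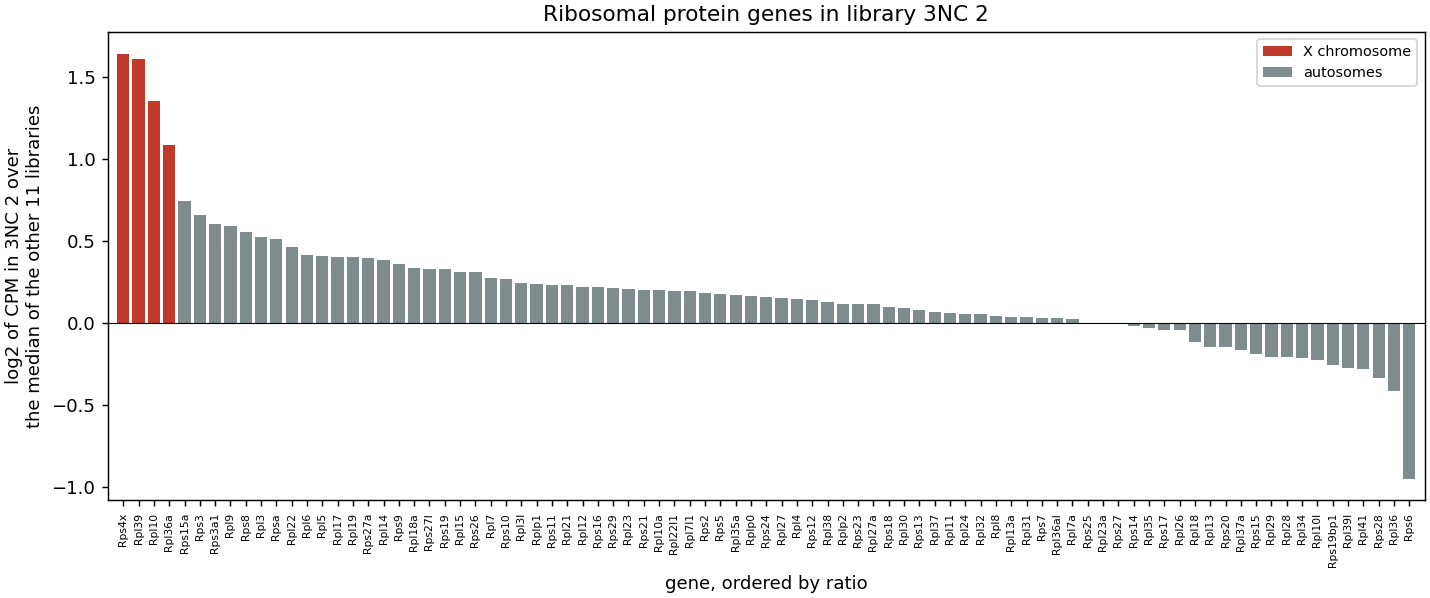
Each bar is a tested gene's log2 ratio of its CPM in library 3NC 2 to the median of the other 11 libraries, with X-linked genes in red and autosomal genes in grey. The 4 X-linked genes take the 4 highest places, with Rps4x at 1.65 and Rps6 lowest at -0.95.

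For the 3 pairs with an X-linked parent, the balance between paralog and parent had its widest spread in 3NC. Of the summed FPKM of Rpl10l and Rpl10, Rpl10l made up 67.2% ± 0.28 in 8276OV, 68.4% ± 2.63 in 5NC, 64.7% ± 2.3 in 8276KD and 61.6% ± 18.1 in 3NC (SD, n = 3 each). The single 3NC libraries had 67.4%, 41.3% and 76%, the second of them 3NC 2. Rpl39l made up 80.3% ± 3.22 of its pair in 8276OV, 77.7% ± 4.38 in 5NC, 80.4% ± 1.45 in 8276KD and 74.3% ± 17.1 in 3NC, with 54.6% in 3NC 2. Rpl36al made up 81.9% ± 1.1, 80.4% ± 2.32, 77.3% ± 2.38 and 78.1% ± 10.1 in the same order of groups. In 27 exact 2-sided permutation tests of such shares, of 9 pairs in 3 comparisons, the adjusted p was 1 throughout, and 3 libraries against 3 cannot give a raw p below 0.1. Without 3NC 2 the 8276KD minus 3NC difference for Rpl10l was -7.01 percentage points instead of 3.13, for Rpl39l -3.74 instead of 6.13 and for Rpl36al -6.43 instead of -0.817.

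**Figure D3:**
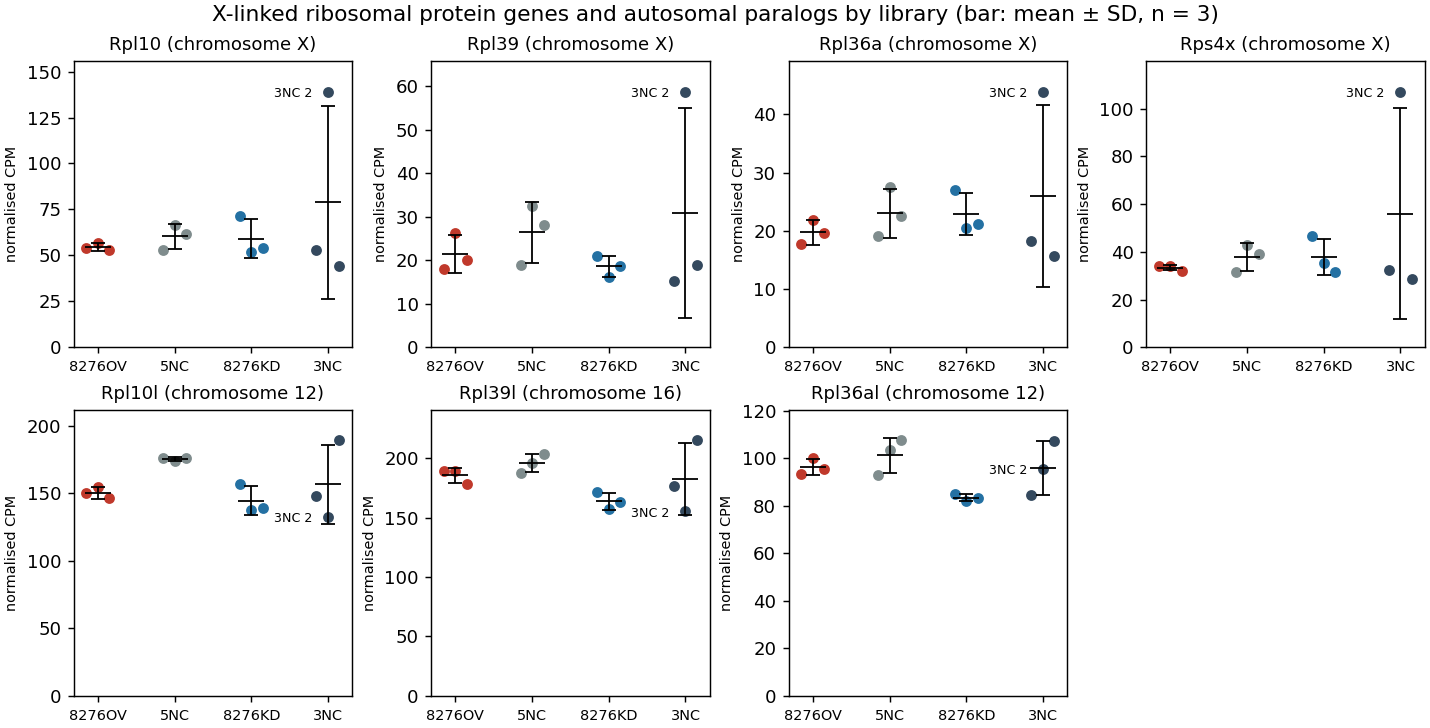
Normalised CPM of the 4 X-linked genes (top) and of the autosomal paralogs of 3 of them (bottom) in each library, with the mean ± SD of each group (n = 3). Library 3NC 2 is the highest point for all 4 X-linked genes and the lowest for Rpl10l and Rpl39l.

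When lncRNA8276 was overexpressed, ribosomal protein mRNAs stayed close to their levels in 5NC. By edgeR's quasi-likelihood test 0 of 85 members passed an adjusted p of 0.05 in 8276OV against 5NC, where 0.476% of all genes passed. The median log2 fold change was -0.03 over the members and -0.01 over all genes, with 34 members above 0 against 48% of all genes, and without 8276OV 2 the members' median was 0.0042. At an unadjusted p under 0.05, 3 members were higher and 2 lower, against 8.9% and 6.39% of all genes (15.3% in either direction), while 13 members reached it in either direction without 8276OV 2, against 20% of all genes, 10 without 5NC 1, against 17.6%, and 2 without 5NC 3, against 10.2%. DESeq2 called 1 member, against 5.79% of the genes to which it gave an adjusted p, and limma-voom 0, against 0.366%. The 7 round spermatid markers summed to 1017 to 1204 CPM in 8276OV and 848 to 921 CPM in 5NC, groups that did not overlap, and their part in this comparison was not tested. The summed level of all members was 13660 ± 686 CPM in 8276OV and 13860 ± 125 CPM in 5NC. The 95% interval of the fold change lay within ±1 on the log2 scale for 80 members and within ±0.5 for 69.

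The 2 highest fold changes belonged to genes with fractional counts in every library. Rps6 had 7.62, 6.31 and 11.3 CPM in 8276OV, against 6.98, 4.8 and 3.81 CPM in 5NC, a log2 fold change of 0.69 ± 0.297 (SE, adjusted p = 0.292), and its groups overlapped. Rpl29 had 7.42, 9.03 and 8.36 CPM in 8276OV, against 4.84, 6.28 and 4.67 CPM in 5NC. These groups did not overlap, with a log2 fold change of 0.65 ± 0.197 and the lowest adjusted p among the members, 0.142. Rps15, a small-subunit protein near the decoding centre, had 173, 119 and 158 CPM in 8276OV, against 134, 99.6 and 103 CPM in 5NC (0.42 ± 0.16, adjusted p = 0.231). Rps28 and Rpl23a followed at 0.22 ± 0.201 and 0.20 ± 0.095. Rps6 was at 0.42 without 8276OV 3 and 0.96 without 5NC 1, and Rps28 at 0.10 without 8276OV 1 and 0.41 without 8276OV 2.

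At the other end stood Rps15a, with 128, 147 and 122 CPM in 8276OV, against 141, 188 and 179 CPM in 5NC (-0.35 ± 0.164, adjusted p = 0.33). Rpl39 had -0.30 ± 0.449, Rps27l -0.28 ± 0.133, Rpl9 -0.28 ± 0.14 and Rps29 -0.25 ± 0.0817. Rpl39 was at -0.13 and Rps27l at -0.18 without 5NC 2, and Rpl39 at -0.50 without 5NC 1. Rps29 had 149, 135 and 144 CPM in 8276OV, against 160.3, 177 and 171 CPM in 5NC, groups that did not overlap (adjusted p = 0.17). All 7 tested paralogs had a log2 fold change below 0, with a median of -0.18, a highest value of -0.06 for Rpl7l1 and a lowest of -0.86 for Rpl3l, whose libraries held 5 to 19 counts. Rpl10l had 149.8, 154 and 146 CPM in 8276OV, against 176, 174 and 176 CPM in 5NC, and none of the 7 passed (lowest adjusted p 0.348). Over all members, groups did not overlap for 3 higher and 8 lower genes, against 11.7% and 10.3% of all genes.

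Rplp0, the protein that anchors the stalk on which elongation factors land, was lower than its control in both comparisons without passing the test. It had 694, 685 and 709.6 CPM in 8276OV, against 794, 747 and 789.9 CPM in 5NC, a log2 fold change of -0.16 ± 0.0645 (adjusted p = 0.262). It had 669.6, 669.9 and 680.2 CPM in 8276KD, against 771, 795 and 756 CPM in 3NC, a log2 fold change of -0.20 ± 0.0645 (adjusted p = 0.559). Neither pair of groups overlapped. The summed stalk genes stood at 931 ± 22.7 CPM in 8276OV against 1026 ± 33.3 CPM in 5NC, and at 898.5 ± 10.4 CPM in 8276KD against 1026 ± 39.9 CPM in 3NC, and Rplp1 and Rplp2, the acidic stalk proteins, had -0.15 and 0.01 in 8276OV and -0.25 and -0.05 in 8276KD. DESeq2 called Rplp0 in both comparisons, with adjusted p of 0.0178 in 8276OV, where it called 5.79% of genes, and 0.00697 in 8276KD, where it called 0.141%.

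**Figure D4:**
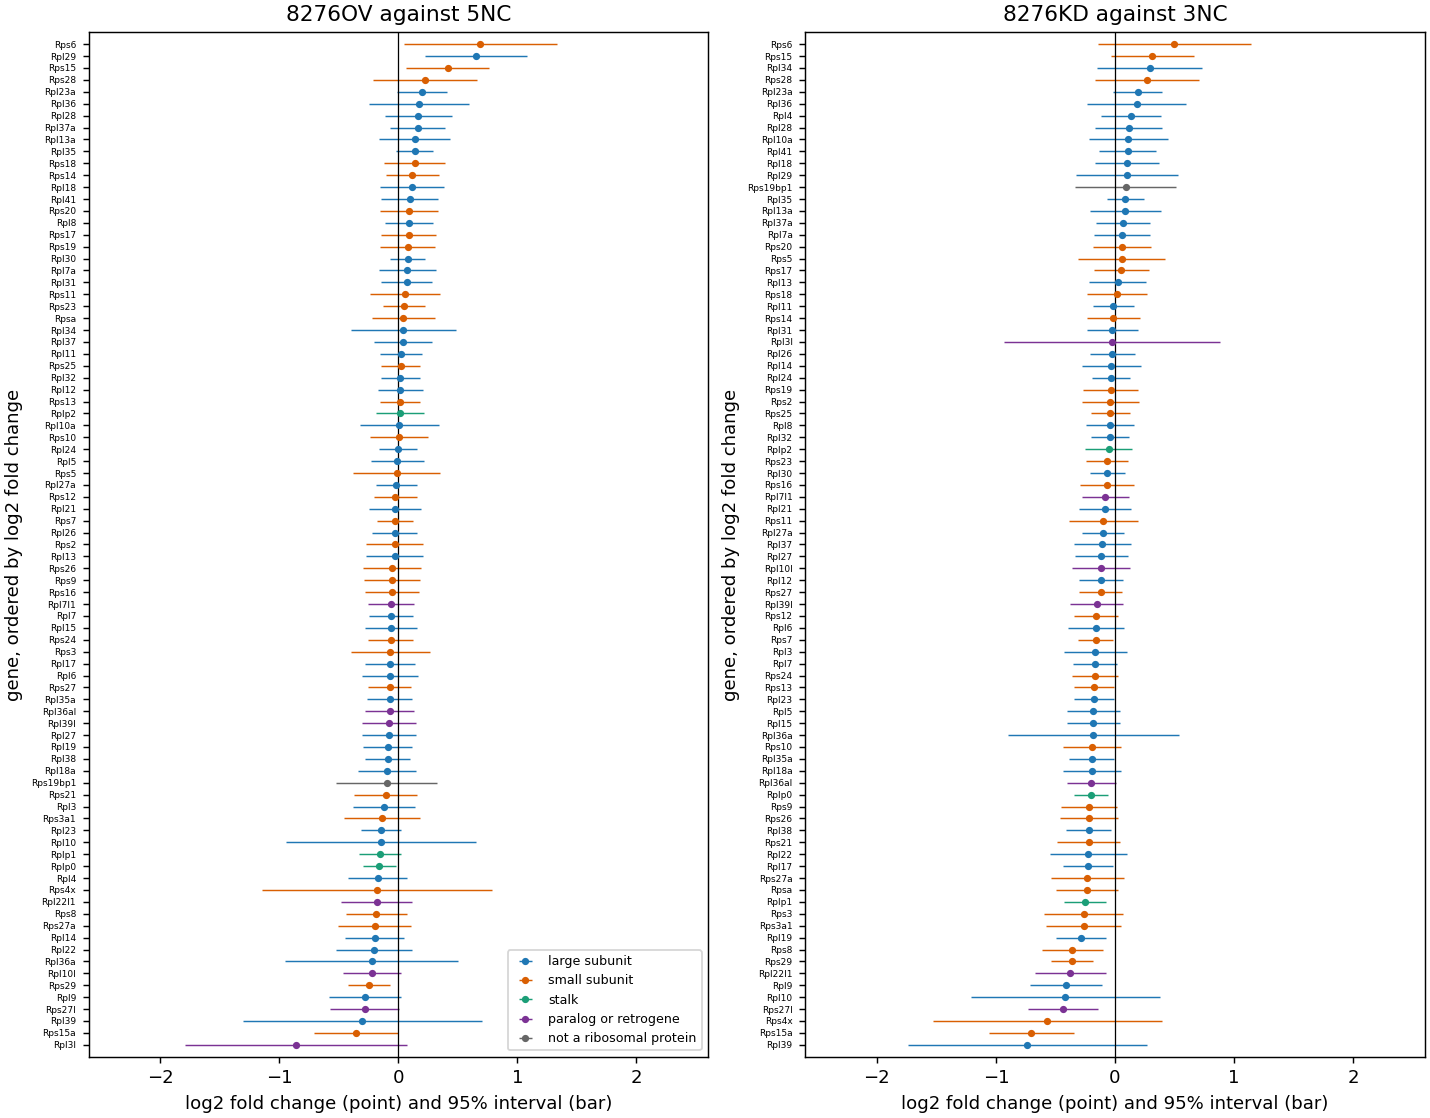
Log2 fold change (point) and 95% interval (bar) of each of the 85 tested genes in 8276OV against 5NC (left) and 8276KD against 3NC (right), ordered within each panel and coloured by class. Most intervals include 0 and lie within ±1; the X-linked Rpl39, Rps4x, Rpl10 and Rpl36a have the widest of the abundant genes.

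When lncRNA8276 was inhibited, more members lay below their control than above it, and again 0 of 85 passed the adjusted test, where 0.0183% of all genes passed. The median log2 fold change of 8276KD against 3NC was -0.11 over the members and -0.03 over all genes, with 22 members above 0 against 45.3% of all genes. At an unadjusted p under 0.05, 0 members were higher and 15 lower, against 3.25% and 5.43% of all genes, or 8.69% in either direction. Groups did not overlap for 1 higher and 15 lower members, against 6.48% and 6.57% of all genes. The median was -0.16 for the small subunit, -0.065 for the large subunit, -0.20 for the stalk and -0.15 for the paralogs. All members summed to 13040 ± 482 CPM in 8276KD and 13940 ± 933 CPM in 3NC. Without 3NC 2 the median over the members was -0.02, with 36 members above 0, against 49.6% of all genes, and 13 at an unadjusted p under 0.05 in either direction, against 6.11%. Without 3NC 1 there were 29 such members, against 18% of all genes, and without 8276KD 2 there were 9, against 4.92%.

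Rps15a had 114, 108 and 111 CPM in 8276KD, against 132, 221 and 189 CPM in 3NC (-0.70 ± 0.164, adjusted p = 0.559). Its groups did not overlap, and 3NC 2 held the highest of its values. Rps29 had 124, 124 and 128 CPM in 8276KD, against 144, 168 and 170.2 CPM in 3NC (-0.36 ± 0.0818, adjusted p = 0.559). Rps27l had 34.9, 31.8 and 36.2 CPM in 8276KD, against 39.1, 49.5 and 50.5 CPM in 3NC (-0.44 ± 0.134, adjusted p = 0.559). For Rps15a and Rps29, DESeq2 gave adjusted p of 0.0313 and 0.0128. In all DESeq2 called 3 members, against 0.141% of all genes, and limma-voom 0, against 0.0183%.

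The X-linked genes had wide intervals in this comparison. Rpl39 had a log2 fold change of -0.74 ± 0.45, Rps4x of -0.57 ± 0.43, Rpl10 of -0.42 ± 0.357 and Rpl36a of -0.18. Without 3NC 2 the first 3 turned to 0.13, 0.31 and 0.28. Summed, the 4 genes stood at 138 ± 23.7 CPM in 8276KD and 192 ± 136 CPM in 3NC, where the libraries ran from 108 to 349 CPM. At the high end of the comparison were Rps6 at 0.50 ± 0.297, Rps15 at 0.31 ± 0.159, Rpl34 at 0.29 ± 0.203, Rps28 at 0.27 ± 0.201 and Rpl23a at 0.19 ± 0.095, with adjusted p of 0.562 or more for each. Rps6 was at 0.25 without 3NC 2, Rps28 at 0.15 without 3NC 3 and 0.46 without 3NC 1, and Rpl23a at 0.11 without 3NC 3.

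The 8276OV effect less the 8276KD effect was tested in the same model, and 0 of 85 members passed, where 0.0183% of all genes passed, with 0 by DESeq2 and limma-voom, against 0.326% and 0.0183%. At an unadjusted p under 0.05, 0 members were higher and 0 lower, against 3.93% and 2.8% of all genes, or 6.73% in either direction. The median difference was 0.10 on the log2 scale over the members and 0.03 over all genes, and 71 of 85 members were above 0, against 54.7% of all genes. Without 3NC 2 the median was 0.03, 54 members were above 0, against 48.1% of all genes, and 5 were at an unadjusted p under 0.05, against 10.6%. The highest were Rpl29 at 0.55 ± 0.278, Rpl39 at 0.43 ± 0.635, Rps4x at 0.39 ± 0.61, Rps15a at 0.35 ± 0.231 and Rpsa, the laminin-binding small-subunit protein, at 0.28 ± 0.171. The lowest were Rpl4 at -0.31 ± 0.163, Rpl34 at -0.25 ± 0.287, Rps19bp1 at -0.19 ± 0.276, Rpl14 at -0.17 ± 0.162 and Rpl10l at -0.11 ± 0.159. Without 3NC 2, Rpl39 and Rps4x turned to -0.43 and -0.49. Each of these 10 values moved by over 1.5 times when some library was left out, for instance Rpl10l to -0.0003 without 3NC 2 and Rpl29 to 0.34 without 3NC 3.

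The 2 control groups were compared directly, since each serves as the base of another comparison. In 5NC against 3NC, 0 of 85 members passed, where 0.244% of all genes passed, and 0 were called by DESeq2 or limma-voom, against 1.87% and 0.0793%. At an unadjusted p under 0.05, 0 members were higher and 0 lower, against 5.01% and 7.87% of all genes. Groups did not overlap for 0 higher and 1 lower member, against 7.02% and 6.17% of all genes. The members' median log2 fold change was -0.0035, beside -0.02 over all genes, with 41 members above 0 against 46.6% of all genes. Without 3NC 2 the members' median was 0.05, with 65 above 0, against 53.3% of all genes, and 4 at an unadjusted p under 0.05, against 15.6%. The lowest members were Rps4x at -0.57 ± 0.43, Rpl10 at -0.39 ± 0.357, Rpl29 at -0.27 ± 0.198, Rpsa at -0.24 ± 0.121 and Rpl39 at -0.23 ± 0.445. The highest were Rps19bp1 at 0.26 ± 0.195, Rpl4 at 0.18 ± 0.115, Rpl34 at 0.17 ± 0.204, Rpl10l at 0.16 ± 0.112 and Rpl13 at 0.11 ± 0.11. Without 3NC 2, Rps4x, Rpl10 and Rpl39 turned to 0.31, 0.31 and 0.63. The other 7 named here also moved by over 1.5 times when some library was left out, for instance Rpl29 to -0.07 without 3NC 3 and Rpl34 to -0.0108 without 5NC 1.

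Apart from 3NC 2, the members varied together along 1 direction. It split the libraries of 8276OV, of 5NC and of 3NC, while all libraries of 8276KD fell on its negative side. Over the other 11 libraries and the 80 members with a mean of at least 20 CPM, this first axis of the log2 levels carried 53.7% of the members' variance. Its score was 0.49 in 5NC 2, 0.39 in 3NC 3, 0.36 in 5NC 3 and 0.32 in 8276OV 2, and between -0.32 and -0.15 in the other 7. Rps15a, Rpl39, Rps27l, Rpl22l1, Rpl9, Rpl22 and Rps27a had the highest weights, and Rps15, Rps28, Rpl36, Rpl13a, Rpl28 and Rpl18 the lowest. In 5NC, for instance, Rps15a was at 141, 188 and 179 CPM and Rps15 at 134, 99.6 and 103 CPM.

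The 2 ends differed in base composition. Coding GC content had a median of 47.1% in the 10 members with the highest weights and 56% in the 10 with the lowest, and over the 80 members its correlation with the weight was r = -0.64 and rho = -0.60, given without a p because the genes share libraries. The libraries 8276OV 2, 5NC 2 and 5NC 3 also had the lowest total counts, under 14000000, and 3NC 3 did not. The elongating spermatid markers summed to 15300 CPM in 8276OV 2, 14950 CPM in 5NC 2 and 16040 CPM in 5NC 3, but to 17330 CPM in 3NC 3, and to 16980 to 20750 CPM in the 7 libraries with negative scores. The part of base composition, depth or cell content in this axis was not tested. The named extremes of 8276OV against 5NC, Rps15 and Rps28 on one side and Rps15a, Rpl39, Rps27l and Rpl9 on the other, are genes of its ends. So are Rps15 and Rps28, at the high end, and Rpl39, Rps15a and Rps27l, at the low end, in 8276KD against 3NC, where the 3 8276KD libraries scored -0.25 to -0.16, 3NC 1 -0.22 and 3NC 3 0.39. The axis was computed on the same levels with the group differences left in. This overlap with the fold changes is therefore partly built in, and no conclusion is drawn from it. With a term for the 3 libraries of low depth, chosen after seeing the data, 0 members passed in 8276OV against 5NC, against 0.342% of all genes. The median was -0.06 over the members and -0.0077 over all genes, and 24 members were above 0, against 48.4% of all genes.

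**Figure D5:**
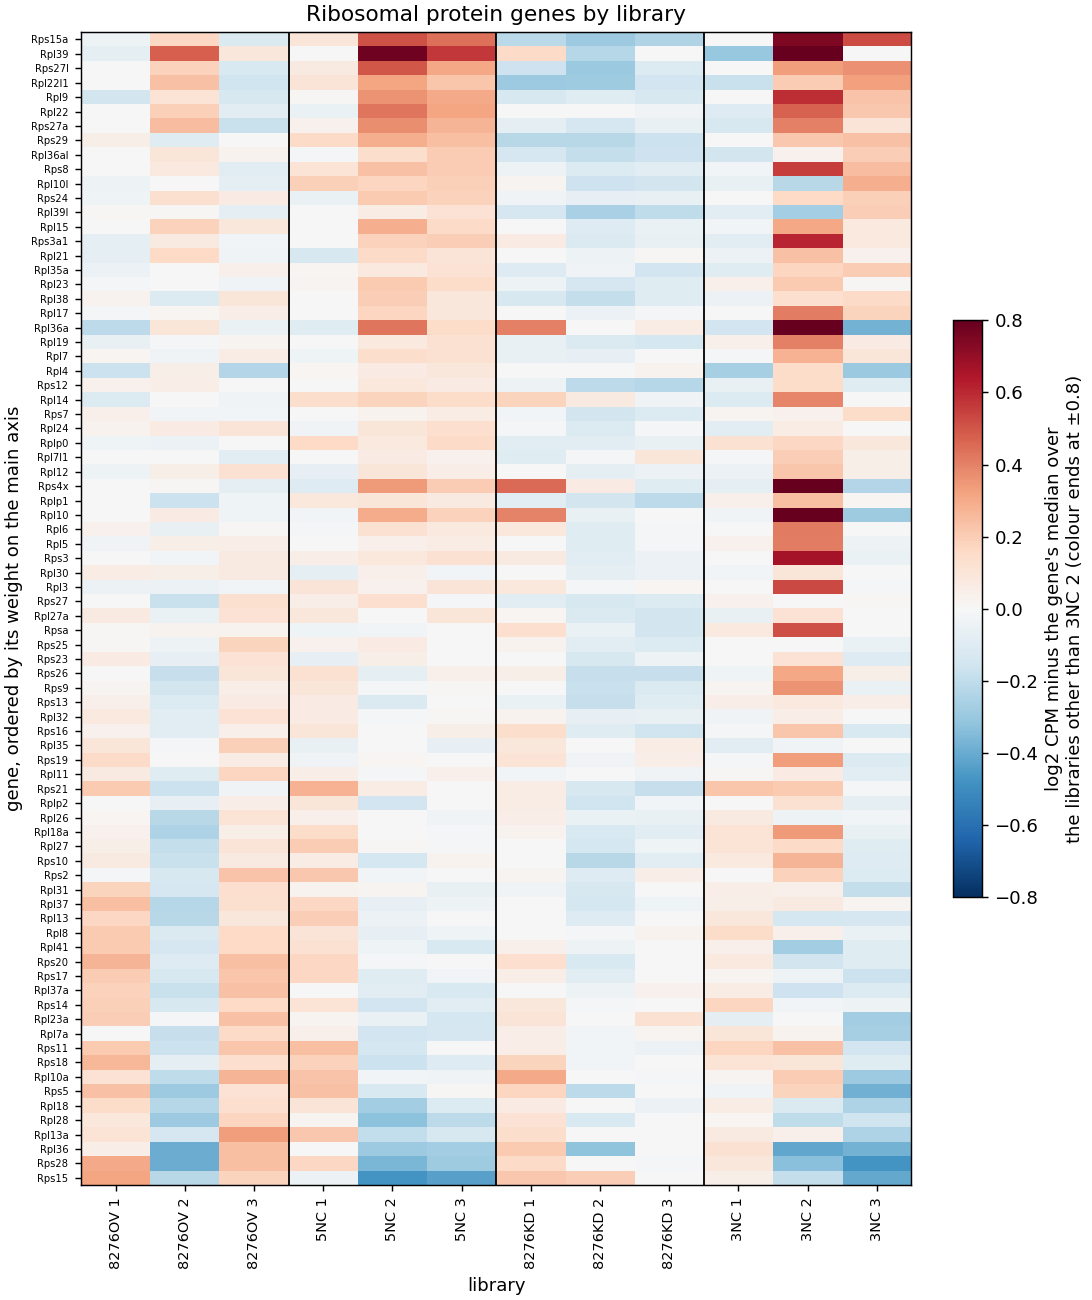
Log2 CPM of 80 genes in each library minus the gene's median over the libraries other than 3NC 2, with genes ordered by their weight on the main axis from Rps15a to Rps15 and vertical lines between groups. Libraries 5NC 2, 5NC 3, 3NC 3 and 8276OV 2 are red at the top and blue at the bottom, and 3NC 2 shows the raised X-linked genes.

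The members varied less within groups than most genes. Their median coefficient of variation within groups was 8.05%, against 12.9% for all tested genes, and the median standard error in 8276OV against 5NC was 0.109 against 0.166 on the log2 scale. The tested members were also far more abundant, with a median of 269 FPKM against 6.39 FPKM for all tested genes. No comparison was made with genes of like level, so a difference due to level cannot be told apart.

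Other genes of the ribosome and of its making did not pass edgeR's test either. Fau and Rack1, ribosomal proteins with other symbols, had log2 fold changes of 0.10 and 0.07 in 8276OV and of 0.10 and -0.35 in 8276KD. Of 67 ribosome biogenesis factors, 0 passed in either comparison, with 10 and 6 at an unadjusted p under 0.05 in 8276OV and 8276KD and medians of -0.06 in both. The lowest of them in 8276OV against 5NC was Utp14b, an autosomal retrogene for a factor of small-subunit assembly, at -0.47 ± 0.102 (adjusted p = 0.0685). Of 27 tested genes listed as elongation factors or as other mRNAs of the 5′ pyrimidine class, 0 passed, with 2 at an unadjusted p under 0.05 in each comparison. Their own starts were not examined for such a run. The medians were -0.06 in 8276OV and -0.12 in 8276KD. In 8276KD against 3NC the lowest of these were Vim, an intermediate filament gene, at -1.16 ± 0.51 and Tmsb4x at -0.97 ± 0.525. The part of cell content in these values was not tested.

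Of 16 genes of RNA polymerase I and 5S transcription, 0 passed, with 0 and 2 at an unadjusted p under 0.05 in 8276OV and 8276KD and medians of -0.04 and 0.06, and Taf1d was lowest in 8276KD at -0.46 ± 0.184. Of 31 tested regulators around mTOR and MYC, 0 passed, with 2 and 1 at an unadjusted p under 0.05 and medians of -0.035 and 0.01, and the kinase gene Rps6ka1 was highest in 8276OV at 0.45 ± 0.14. The 78 mitochondrial ribosomal proteins, which build a separate ribosome, had 0 passing, 13 and 4 at an unadjusted p under 0.05 and medians of -0.01 and -0.02, with summed levels of 2308 ± 26.5 CPM in 8276OV, 2312 ± 77.1 CPM in 5NC, 2190 ± 16.9 CPM in 8276KD and 2215 ± 119 CPM in 3NC. The share of all genes called in these comparisons is the one given above.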

How the data were processed

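The deposited table gives, per gene and library, estimated counts and a second value that its column names do not explain. The authors' second value was taken as FPKM from the values themselves: with the deposited counts it gives 1 length per gene up to a constant difference between libraries. The authors' estimated counts are whole for 88.2% of values (tolerance 1e-06) and fractional elsewhere. Per the submitters' processing notes, reads were placed on mm10. Aligner, counter, annotation and strand setting: not given in the sources used here. The table's 18 columns of 9 other samples were not used.

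Estimated counts were rounded and fitted in R 4.3.3 with edgeR 4.0.16: filterByExpr with the groups (minimum count 10), TMM scaling, and a robust quasi-likelihood model of 4 group means over all 12 libraries. P-values were adjusted by Benjamini-Hochberg over 16395 genes, with 0.05 as the threshold. CPM are scaled by TMM. Fold changes carry standard errors of the fit, and shares were compared by exact permutation tests. No pair of libraries of a group agreed within sampling noise (chi-square over its degrees of freedom 3.04 to 39). The test was tried on simulated counts, with known changes in genes drawn from all those tested. In 8276OV against 5NC it recovered 21.3% of 1.5-fold, 41.5% of 2-fold and 84.5% of 4-fold changes, and 6.12% of its calls were false. In 8276KD against 3NC it recovered 30.8%, 54.4% and 90.5%, and 4.27% of its calls were false. Recovery was not worked out for the members alone, so smaller changes among them may have been missed.

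Alternatives were other scalings, DESeq2 1.42.0, voom in limma 3.58.1, no filter, the groups compared alone, a replicate block, a depth term and leaving out each library. Counts cover no molecular identifiers, so shared or duplicated reads are not independent. The members and lists were chosen with earlier results of these data known. Genes named are the paralogs and parents, the 10 members with the highest FPKM, those left out by the filter, and per comparison any that passed and the 5 highest and 5 lowest with a mean of at least 1 CPM; others were named after their values were seen.

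RefSeq gene identifiers matched all 87 members, and sequences were handled in Python 3.11.15 with Biopython 1.88.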

Additional observations from a re-analysis of the deposited data

How the results depend on the processing

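The count of members called by the adjusted test was 0 in all 4 comparisons under every alternative run except DESeq2, which called 1 member (Rplp0) in 8276OV against 5NC, among 742 genes, and 3 (Rplp0, Rps15a at -0.71, Rps29) in 8276KD against 3NC, among 23 genes. Leaving out each library in turn gave medians over the members of -0.144 to -0.0216 in 8276KD against 3NC and 0.0266 to 0.124 in the difference of effects, the value nearest 0 in each case without 3NC 2. The same range in 8276KD against 3NC was -0.70 to 0.28 for Rpl10, -0.88 to 0.31 for Rps4x and -1.06 to 0.13 for Rpl39. In the difference it was -0.43 to 0.76 for Rpl39 and -0.49 to 0.70 for Rps4x, and in 5NC against 3NC -0.56 to 0.63 for Rpl39, -0.67 to 0.31 for Rpl10 and -0.88 to 0.31 for Rps4x. The end of each range that has the opposite sign to the value with all libraries is the one without 3NC 2. In 5NC against 3NC Rpl34 ran from -0.0108, without 5NC 1, to 0.27. With total counts only, 24 members were above 0 in 8276OV against 5NC, against 41.6% of all genes. In the difference 55 were, against 47.5% of all genes. The replicate numbers were not taken to pair the libraries: same-numbered libraries correlated at 0.21, 0.313 and -0.125 in 8276OV and 5NC, at 0.038, -0.039 and -0.093 in 8276KD and 3NC, and at 0.299, 0.181 and 0.003 in 5NC and 3NC, so not every pair was over 0.1. Libraries numbered 1 and 2 correlated best with their own number in 8276OV with 5NC and in 5NC with 3NC, but not in 8276KD with 3NC. Those numbered 3 correlated best with another number each time. With the replicate number as a block, 0 members were called in any comparison, with lowest adjusted p of 0.0818 in 8276OV against 5NC and 0.276 in 8276KD against 3NC, while calls over all genes in 8276OV against 5NC were 269, against 78 without the block, and in the difference 6 against 3. Groups of 3 and sequence shared with other genes limit what can be resolved.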
